A study of Mus musculus with 4 samples.

Results

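The genes described here were 9 genes that mark or drive the passage of pluripotent cells from the naive towards the formative and primed states: *Otx2*, *Pou3f1*, *Zic2*, *Zic5*, *Foxd3*, *Utf1*, *Lin28a*, *Lin28b* and *Fgf5*. They were taken by gene symbol from the 19645 features of each deposited expression file, and each of the 9 matched 1 feature. The series held 4 RNA-seq libraries, depleted of ribosomal RNA, of mouse embryonic stem cells (ESCs), 2 of wild-type (WT) cells and 2 of cells in which *Bmal1*, also named *Arntl*, had been knocked out (KO) with CRISPR-Cas9. BMAL1 is the transcription factor that, with CLOCK, drives the positive arm of the circadian clock. Per the study's methods the KO line was 1 selected clone, made by transfection with a Cas9 plasmid carrying puromycin resistance, and the ESCs were grown on gelatin in medium with serum and leukaemia inhibitory factor (LIF). The labels name no further clone, so an effect of the deletion and a difference between the clone and its parent culture cannot be told apart. Expression was given as FPKM, the fragments of a feature per kilobase of its transcript and scaled to the mapped fragments of the library, so levels can be compared between genes. *Arntl* itself had FPKM of 6.05 and 6.29 in WT and 5.95 and 5.92 in KO (log2 fold change -0.06, adjusted p = 0.750 in limma). The guide RNA was aimed at the start codon, and a small deletion there does not have to change this value, so it checks nothing about the genotype of the libraries. The study's methods call the libraries biological replicates, and neither they nor the labels say whether these were separate cultures. The p-values therefore measure only the spread between these libraries. In RNA from bulk cells, fewer cells that express a gene and less RNA per cell cannot be told apart either.

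Naive pluripotency is the state of the epiblast before implantation, held in culture by LIF together with factors such as NANOG, ESRRB and the KLF proteins. On release from it, cells pass through a formative state in which OTX2 and the POU factor OCT6 (*Pou3f1*) redirect OCT4 to new enhancers, and then reach the primed state of the epiblast after implantation, marked by the growth factor FGF5 and dependent on FGF and activin signalling. ESCs kept in serum with LIF are mixed, and single cells move between states that express more naive or more formative genes. The comparison therefore asked whether KO cells stood closer to the primed state than WT cells.

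The members did not move in one direction. *Pou3f1* was higher in KO cells, *Otx2* and *Utf1* were lower, and the other 5 tested members did not pass the test. Fold changes are on the scale of log2(FPKM + 0.1), and each adjusted p comes from limma with Benjamini-Hochberg adjustment over all 12990 features that were tested, those whose FPKM averaged 0.5 or more. Of the 9 members, 8 reached that minimum and *Fgf5* did not. Of all tested features, 6.85% were higher and 5.60% lower in KO at an adjusted p under 0.05. Among the 8 tested members 1 was higher and 2 were lower. No member was both past the test and past a 2-fold change, as 4.14% of all tested features were. The median log2 fold change of the 8 tested members was -0.29, beside -0.02 over all tested features. With 2 libraries against 2, an exact permutation test on a single gene cannot give a two-sided p under 0.333, so no such p is given.

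**Figure D1:**
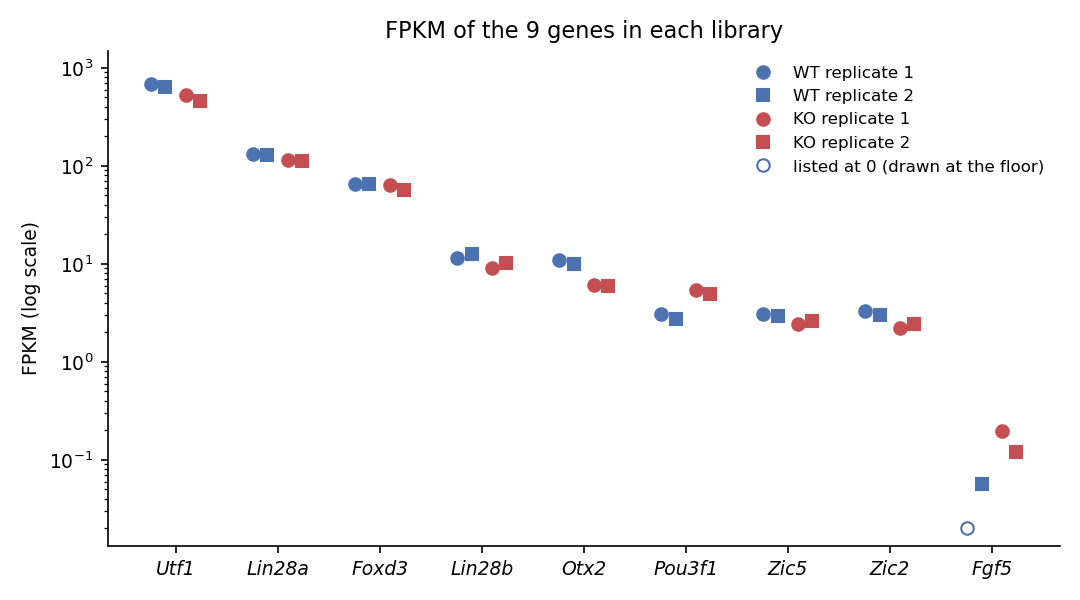
FPKM (log axis) of the 9 genes, in order of their mean, in each of the 2 WT (blue) and 2 KO (red) libraries; the open circle marks a value listed as 0. The KO libraries lie above the WT libraries for *Pou3f1* and *Fgf5* and below them for the other 7 genes.

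Transcription factors that lead the exit from naive pluripotency showed the widest changes among the 8 tested members, in opposite directions. *Otx2* (chr14:48657621-48667644, minus strand; coordinates of features are those of the files on GRCm38, with strands from GENCODE) encodes a homeodomain factor of the formative and primed epiblast and, later, of the forebrain. Its FPKM were 10.9 and 9.95 in WT and 6.06 and 6.01 in KO. Both KO libraries lay below both WT libraries, and the mean FPKM fell by 42.1% from WT to KO, with a gap of 3.89 FPKM between the groups. The log2 fold change of *Otx2* was -0.78 (SE 0.10, 95% confidence interval -1.03 to -0.53, adjusted p = 0.0099 in limma). It passed in each of the 15 settings tried, with adjusted p from 0.00024 to 0.0272.

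*Pou3f1* (chr4:124657646-124660655, plus strand), which encodes OCT6 and is also expressed in neural progenitors, was the only tested member that was higher in KO cells. Its FPKM were 3.12 and 2.77 in WT and 5.42 and 4.93 in KO. The KO values did not overlap the WT values and exceeded them by at least 1.81 FPKM. The log2 fold change was 0.79 (SE 0.13, 95% confidence interval 0.47 to 1.12, adjusted p = 0.0187 in limma), and it passed in each of the 15 settings with adjusted p up to 0.0497. The fold changes of *Otx2* and *Pou3f1* were thus of nearly equal size on the log2 scale and opposite in sign.

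The zinc finger genes *Zic2* and *Zic5* are neighbours on chromosome 14 and divergently transcribed. Their features lie 4718 bases apart, *Zic2* at chr14:122470377-122480328 on the plus strand and *Zic5* at chr14:122456784-122465658 on the minus strand. The annotated genes lie further apart, since that of *Zic2* starts at 122475435 and that of *Zic5* ends at 122465677. ZIC2 binds enhancers of primed cells, and ZIC5 is a related factor of the early neural plate. *Zic2* had FPKM of 3.30 and 3.03 in WT and 2.23 and 2.41 in KO. *Zic5* had FPKM of 3.06 and 2.97 in WT and 2.45 and 2.59 in KO. For both genes both KO libraries lay below both WT libraries, and neither passed the test. The log2 fold change of *Zic2* was -0.43 (SE 0.14, 95% confidence interval -0.78 to -0.09, adjusted p = 0.106 in limma). That of *Zic5* was -0.25 (SE 0.13, 95% confidence interval -0.58 to 0.08, adjusted p = 0.276 in limma). Neither passed in any of the 15 settings. The *Zic2* feature spans more than the annotated gene and shares its coordinates with the antisense transcript *2610035F20Rik*, whose FPKM were 1.30 and 1.35 in WT and 1.01 and 1.04 in KO. Because the protocol in the labels names no strand, reads of this pair cannot be told apart with certainty. The ratio of *Zic2* to *Zic5* FPKM ran from 0.909 to 1.08 over the 4 libraries.

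*Foxd3* (chr4:99656299-99658671, plus strand) encodes a forkhead repressor needed to keep pluripotent cells and to prepare enhancers for the primed state. Its FPKM were 65.2 and 65.5 in WT and 64.5 and 56.2 in KO. KO replicate 1 lay only 0.797 FPKM below the lower WT library, while KO replicate 2 stood further down. The log2 fold change was -0.12 (SE 0.09, 95% confidence interval -0.34 to 0.10, adjusted p = 0.431 in limma). *Utf1* (chr7:139943856-139945112, plus strand) encodes a chromatin-bound factor of undifferentiated cells, linked to silencing at bivalent promoters, and was the most abundant member. Its FPKM were 693 and 635 in WT and 531 and 457 in KO. Both KO libraries lay below both WT libraries, with a gap of 104 FPKM. Its log2 fold change was -0.43 (SE 0.10, 95% confidence interval -0.68 to -0.18, adjusted p = 0.0491 in limma). This call stood close to the threshold. It passed in 8 of the 15 settings, with adjusted p from 0.0062 to 0.159, and it was lost without WT replicate 1 (adjusted p = 0.0806) and without KO replicate 2 (adjusted p = 0.140).

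LIN28A and LIN28B are RNA-binding proteins that stop the let-7 microRNAs from maturing, and both are lost as pluripotent cells differentiate. *Lin28a* lies at chr4:134003330-134018816 and *Lin28b* at chr10:45376619-45486547, both on the minus strand. *Lin28a* had FPKM of 133 and 130 in WT and 115 and 113 in KO. *Lin28b* had FPKM of 11.6 and 12.7 in WT and 9.10 and 10.2 in KO. In both genes the KO libraries lay below the WT libraries, with a log2 fold change of -0.21 for *Lin28a* (SE 0.07, 95% confidence interval -0.38 to -0.04, adjusted p = 0.106 in limma) and -0.33 for *Lin28b* (SE 0.11, 95% confidence interval -0.59 to -0.07, adjusted p = 0.106 in limma). Both passed in 1 of the 15 settings, the one with the replicate number as a block (adjusted p = 0.0139 and 0.0174). *Lin28a* stood 10.3 to 12.6 times above *Lin28b* in FPKM in every library. The *Lin28a* feature overlaps the antisense transcript *Gm13061* by 670 bases at its 5′ end, and reads there cannot be told apart from those of that transcript.

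BMAL1 and CLOCK bind the E-box CACGTG, which reads the same on both strands. RefSeq start sites on GRCm38.p6 were at hand for 7 of the 9 members (not *Pou3f1* and *Zic2*), and the 250 bases before each start were searched. An E-box was found before *Lin28b* and *Foxd3*, and before none of the start sites of the other 5. Over all windows in the same table, 6.02% held one, or 6.86% of genes. The 2 windows with an E-box are shown with the E-box in capitals, and that of the most 5′ of the listed starts of *Otx2*, the member with the largest fall, is shown for comparison. The *Lin28b* window lies at chr10:45470202-45470451 on the minus strand, before a start that is inside the span of the feature and not at its 5′ end, with the E-box 49 bases before the start. The *Foxd3* window lies at chr4:99656049-99656298 on the plus strand, with the E-box 217 bases before the start. The *Otx2* window lies at chr14:48667645-48667894 on the minus strand.
Lin28b: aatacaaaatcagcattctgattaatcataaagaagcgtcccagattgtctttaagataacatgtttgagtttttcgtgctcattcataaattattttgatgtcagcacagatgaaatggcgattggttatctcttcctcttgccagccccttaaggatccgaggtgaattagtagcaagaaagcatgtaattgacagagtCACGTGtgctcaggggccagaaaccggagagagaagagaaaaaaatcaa
Foxd3: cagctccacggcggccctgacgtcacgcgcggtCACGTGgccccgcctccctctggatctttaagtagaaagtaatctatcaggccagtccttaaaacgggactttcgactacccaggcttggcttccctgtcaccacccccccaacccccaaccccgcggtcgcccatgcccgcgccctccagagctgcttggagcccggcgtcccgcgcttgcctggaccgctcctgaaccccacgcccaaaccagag
Otx2: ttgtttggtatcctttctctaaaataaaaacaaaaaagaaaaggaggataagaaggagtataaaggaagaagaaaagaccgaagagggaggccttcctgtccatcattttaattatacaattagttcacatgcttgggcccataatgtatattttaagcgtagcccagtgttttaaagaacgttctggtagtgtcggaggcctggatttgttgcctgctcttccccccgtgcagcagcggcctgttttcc
The *Lin28b* window had a GC content of 39.2%, that of *Otx2* 42.0% and that of *Foxd3* 65.6%, beside a median of 52.4% over all windows. *Lin28b* and *Foxd3* did not pass the test as reported. Of the members that did, *Otx2* and *Utf1* held no E-box in this window and *Pou3f1* was not searched. Whether BMAL1 acts on any member was not tested. A match is only a description of these letters, since no binding was measured here.

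The *Lin28* transcripts are known targets of let-7, so that the LIN28 proteins and let-7 restrain each other. All 8 let-7 5p arms in the RefSeq table (let-7a to let-7g and let-7i) share 1 seed, bases 2 to 8, given in capitals for the 3 arms whose host features were found in the files under the names *Mirlet7i* and *Mirlet7d,Mirlet7f-1*.
let-7i-5p: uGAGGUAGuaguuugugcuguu
let-7d-5p: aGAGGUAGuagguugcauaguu
let-7f-5p: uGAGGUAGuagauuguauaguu
The letters that pair with this seed, CTACCTC, were searched on the transcript strand of the 3′ untranslated region of the GENCODE transcript nearest to each feature. They occurred 2 times in *Lin28a* and 4 times in *Lin28b*, and in none of the other 7 members. Of 21022 genes with an annotated 3′ untranslated region, 9.02% held at least 1 such match. That share took the longest such region of each gene and was not matched for length. Those of *Lin28b* (4445 bases) and *Lin28a* (2775 bases) were the longest of the 9 members. The 3 matches that are followed by an A are shown with the match in capitals. They lie on the minus strand of GRCm38, at chr4:134005189-134005211 and chr4:134004551-134004573 in *Lin28a* and at chr10:45381022-45381044 in *Lin28b*.
Lin28a first: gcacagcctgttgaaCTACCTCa
Lin28a second: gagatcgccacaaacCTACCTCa
Lin28b first: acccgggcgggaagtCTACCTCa
The host feature *Mirlet7i* had FPKM of 2.39 and 1.71 in WT and 3.21 and 2.65 in KO, a log2 fold change of 0.50 (SE 0.21, adjusted p = 0.174 in limma). The feature *Mirlet7d,Mirlet7f-1* had FPKM of 1.53 and 2.23 in WT and 2.37 and 2.84 in KO, a log2 fold change of 0.47 (SE 0.22, adjusted p = 0.222 in limma). In both features the KO libraries lay above the WT libraries, neither passed, and libraries of total RNA do not measure the mature microRNA.

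*Fgf5* (chr5:98254184-98277033, plus strand), the ligand most used as a marker of primed cells, stood far under the other members. It was listed at an FPKM of 0 in WT replicate 1, and at 0.0572 in WT replicate 2, 0.199 in KO replicate 1 and 0.119 in KO replicate 2. Both KO values lay above both WT values. No fold is given, because 1 WT library was listed at 0, and without the minimum on FPKM the adjusted p was 0.149. In long genes with 1 transcript the lowest values of FPKM times length gathered around 1 value per library (11 to 25 genes a library). Taken as the worth of 1 fragment, it puts the libraries at about 22400000 to 23300000 fragments, an estimate from the values and not a recorded depth. On that scale *Fgf5* rested on about 3.22 fragments in WT replicate 2, 11.2 in KO replicate 1 and 6.68 in KO replicate 2, so a difference at this depth rests on few molecules.

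**Figure D2:**
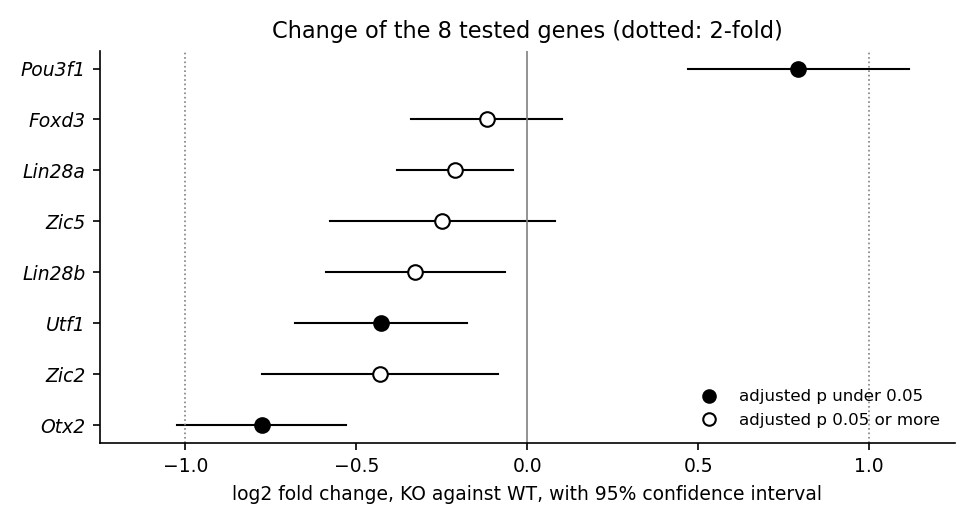
Fold change on the log2 scale (KO against WT) of the 8 tested genes, with the 95% confidence interval of the limma fit as a line; filled points had an adjusted p under 0.05, and dotted lines mark a 2-fold change. *Pou3f1* lies at 0.79, *Otx2* at -0.78, and no interval of the other 6 genes reaches a 2-fold change.

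By level, *Utf1* stood highest, then *Lin28a*, *Foxd3*, *Lin28b* and *Otx2*, then *Pou3f1*, *Zic5* and *Zic2*, and last *Fgf5*. The mean FPKM of *Utf1* was 4.71 times that of *Lin28a*, which was 1.95 times that of *Foxd3*, which was 5.77 times that of *Lin28b*. *Lin28b* lay above *Otx2* in each of the 4 libraries, although their ranges over all libraries overlapped. The ranges of *Pou3f1* and *Zic5*, and of *Zic5* and *Zic2*, overlapped too, and the order within these pairs differed between libraries. *Zic2* stood well above *Fgf5* in every library. The *Otx2* FPKM rested on about 349 to 659 fragments a library and those of *Zic2* on about 122 to 188.

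Of the 8 tested members, 7 had both KO libraries below both WT libraries and 1 had both above. Over all tested features 31.7% were separated downwards and 27.0% upwards. Each tested member kept the sign of its change in all 15 settings. Features that carry no gene symbol made up 26.8% (replicate 1) and 37.3% (replicate 2) of all FPKM in WT, against 19.0% and 18.1% in KO. When each library was scaled to the features with a symbol, the median of the members was -0.22 and that of all tested features 0.05. The calls over all features then stood at 1077 higher and 517 lower, in place of 890 and 728.

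Genes next to the members that passed were compared with them. Of the 5 nearest tested features with a symbol on each side of *Otx2*, none passed the test. Their log2 fold changes ran from -0.12 to 0.81, with a median of 0.02. Of the 10 around *Pou3f1*, 1 passed, in the downward direction, and the median log2 fold change was -0.18. Of the 10 around *Utf1*, 2 passed, both upwards, with a median of -0.04.

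Other genes of the LIN28 and let-7 axis, meaning the uridylases and nucleases that degrade the let-7 precursor, the microRNA processing enzymes and let-7 targets, had calls that depended on the fit. Of 15 tested, 2 were higher, 1 was lower and 12 did not pass, with a median log2 fold change of -0.16. With a replicate block 3 were higher and 7 lower, but of all 12990 tested features 1807 were then higher and 2245 lower. *Dis3l2*, the exonuclease that degrades uridylated let-7 precursors, rose from 7.46 and 7.05 to 10.2 and 9.89 FPKM (log2 fold change 0.46, adjusted p = 0.0337 in limma). *Igf2bp2*, an RNA-binding let-7 target, had a log2 fold change of 0.33 (adjusted p = 0.04997) and *Mycn* one of -0.35 (adjusted p = 0.0389). None of these 3 calls held when any 1 of WT replicate 2, KO replicate 1 or KO replicate 2 was left out, with adjusted p from 0.0581 to 0.213, and those of *Igf2bp2* and *Mycn* were also lost without WT replicate 1 (0.0869 and 0.104).

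A wider list of 18 other formative and primed genes also held calls in both directions. Of the 16 tested, 3 were higher and 2 lower in KO, with a median log2 fold change of -0.06. With a replicate block 4 were higher and 5 lower, beside 1807 and 2245 of all 12990 tested features. *Sox3*, a SOX factor of the primed epiblast and neural progenitors, rose from 1.67 and 1.42 to 3.60 and 3.25 FPKM (log2 fold change 1.10, adjusted p = 0.0133 in limma). *Sox11*, a SOX factor of neural precursors, rose from 1.71 and 1.58 to 3.66 and 3.54 FPKM (log2 fold change 1.08, adjusted p = 0.010). *Dnmt3b*, the de novo DNA methyltransferase that is raised on exit from the naive state, fell from 61.3 and 62.0 to 37.1 and 35.0 FPKM (log2 fold change -0.77, adjusted p = 0.0052). These 3 genes passed in all 15 settings. *Grhl2*, an epithelial factor of formative enhancers, had a log2 fold change of -0.62 (adjusted p = 0.0244, passed in 13 of 15 settings). *Etv5*, an ETS factor induced by FGF, had one of 0.44 (adjusted p = 0.0409, passed in 11 of 15 settings and lost without WT replicate 2, at 0.0965, or KO replicate 1, at 0.0944).

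Genes of the primitive streak, which primed cultures express at low levels, were mostly too low to test. Of 8 such genes 2 were tested, and both were lower, as were 5.60% of all tested features. *Eomes*, a T-box factor of mesendoderm, fell from 2.21 and 2.25 to 0.463 and 0.775 FPKM (log2 fold change -1.73, SE 0.27, adjusted p = 0.0154 in limma). *Lefty2*, an inhibitor and target of NODAL, fell from 31.8 and 31.1 to 24.1 and 18.9 FPKM (log2 fold change -0.56, adjusted p = 0.0430), a call that was lost without KO replicate 2 (adjusted p = 0.0810). The other 5 with a row, among them *T* and *Mixl1*, were under the minimum. Of these, *T* and *Foxa2* had both KO libraries above both WT libraries, at an FPKM of at most 0.206, and the rest overlapped.

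Naive genes did not move together either. Of 15 tested, 2 were higher, 2 were lower and 11 did not pass, with a median log2 fold change of -0.05. With a replicate block 5 were higher and 6 lower, beside 1807 and 2245 of all 12990 tested features. *Nr0b1*, a nuclear receptor of naive cells, rose from 127 and 123 to 187 and 176 FPKM (log2 fold change 0.54, adjusted p = 0.0109 in limma, passed in 15 of 15 settings). *Tfcp2l1* had a log2 fold change of 0.39 (adjusted p = 0.0259) and *Klf4* one of -0.46 (adjusted p = 0.0177). *Nr5a2* had one of -0.55 (adjusted p = 0.0260). The *Tfcp2l1* call was lost without WT replicate 2, KO replicate 1 or KO replicate 2 (adjusted p 0.0768, 0.0829 and 0.0629), and that of *Nr5a2* without KO replicate 1 (0.0597). *Nanog* had FPKM of 201 and 207 in WT and 179 and 179 in KO (log2 fold change -0.18, adjusted p = 0.143), *Esrrb* had a log2 fold change of 0.25 (adjusted p = 0.200) and *Zfp42* one of -0.21 (adjusted p = 0.139). The median log2 fold change of the other formative and primed genes minus that of the naive genes was -0.01. It came to -0.14 without KO replicate 1 and to 0.04 without WT replicate 1. Each of the 2 medians turned above 0, to 0.01 and 0.02, when libraries were scaled to features with a symbol.

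**Figure D3:**
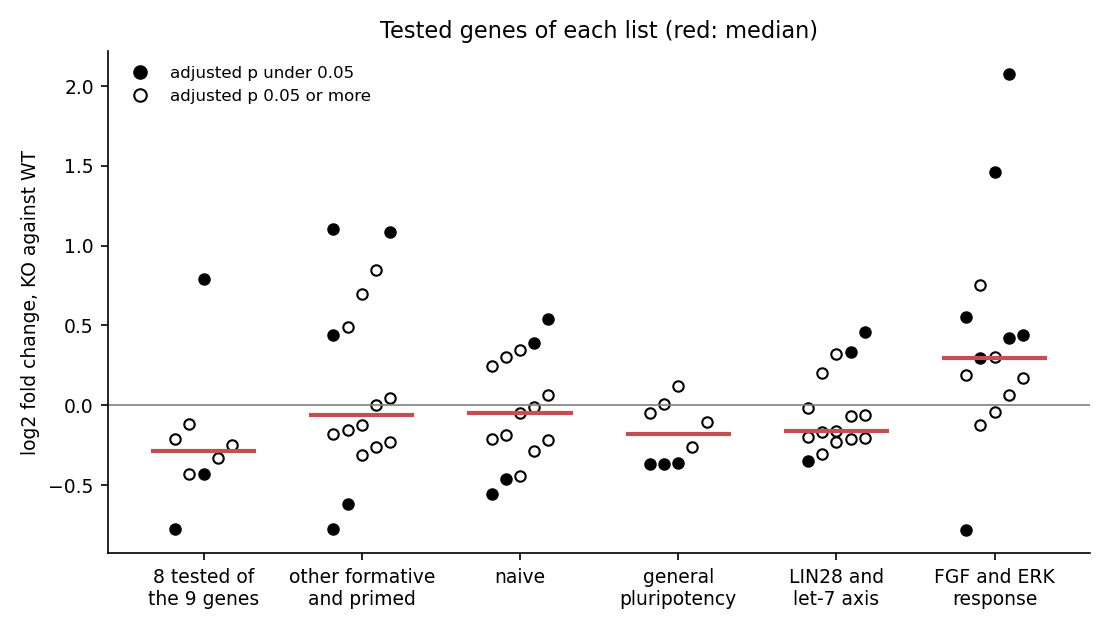
Fold change on the log2 scale (KO against WT) of the tested genes of each list, 1 point a gene, filled where the adjusted p was under 0.05; the red line is the median of the list. The members have a median of -0.29, the other formative and primed genes -0.06 and the naive genes -0.05, and both directions occur in each of these lists.

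Of the general pluripotency genes, which both states share, 8 were tested, 0 were higher and 3 were lower at an adjusted p under 0.05, with a median log2 fold change of -0.18. *Pou5f1*, which encodes OCT4, had a log2 fold change of -0.05 (adjusted p = 0.799) and *Sox2* one of -0.26 (adjusted p = 0.0754). *Trim28*, *Dppa2* and *Tdgf1* passed, at -0.37, -0.37 and -0.36, and each of these calls was lost without WT replicate 2, KO replicate 1 or KO replicate 2, with adjusted p from 0.0632 to 0.126, and that of *Trim28* also without WT replicate 1 (0.0931). The ESC markers were present at high levels in each library, with a summed FPKM of 6006 to 6528 over 9 genes.

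FGF receptors and genes induced by ERK, the pathway that primed cells depend on, had more calls upwards than downwards. Of 14 tested, 6 were higher, 1 was lower and 7 did not pass, with a median log2 fold change of 0.30 beside -0.02 over all features. Over all tested features, 6.85% were higher and 5.60% lower. *Fgfr2*, a receptor for FGF ligands, rose from 0.184 and 0.172 to 1.07 and 1.08 FPKM (log2 fold change 2.08, SE 0.29, adjusted p = 0.0119 in limma). Its mean FPKM reached the minimum only through the KO libraries, so it was tested in 12 of the 15 settings and not without either KO replicate. It passed in those 12, and its log2 fold change ran from 0.82 to 2.53, depending on the pseudocount. *Dusp4*, a phosphatase induced by and acting on ERK, rose from 3.22 and 2.86 to 8.15 and 8.92 FPKM (log2 fold change 1.46, adjusted p = 0.0040). *Dusp6*, another ERK phosphatase, had a log2 fold change of 0.55 (adjusted p = 0.0116). *Egr1*, an immediate early gene of the same pathway, fell from 13.4 and 12.1 to 7.60 and 7.14 FPKM (log2 fold change -0.78, adjusted p = 0.0099). The rest of the 6 were *Etv5*, also counted among the formative and primed genes, the ligand *Fgf4*, and *Spry4*. *Spry4* had a log2 fold change of 0.42 (adjusted p = 0.0436 in limma, and 0.0763 without the minimum on FPKM). In fits on all 4 libraries, 3 genes were higher without the minimum or without the variance trend. With a replicate block 8 were higher, beside 1807 of all 12990 tested features.

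Related genes of the same families were mostly under the minimum. *Fgf4*, the FGF ligand of ESCs, rose from 72.4 and 72.3 to 86.9 and 90.8 FPKM (log2 fold change 0.30, adjusted p = 0.0493 in limma), a call that was lost without any 1 of the 4 libraries (adjusted p 0.115 to 0.197). *Otx1*, *Zic1*, *Pou3f2*, *Pou3f3*, *Pou3f4*, *Foxd1* and *Foxd2* were under the minimum.

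Markers of other cell types were looked at because *Pou3f1* and the SOX genes are also expressed in neural cells. Of 10 neural markers 6 were tested, and 3 were higher and 1 lower in KO. *Sox1*, a marker of the early neuroectoderm, rose from 1.32 and 1.38 to 6.91 and 7.61 FPKM (log2 fold change 2.34, adjusted p = 0.0017 in limma). *Neurod1* rose by 2.11 and *Pax6* by 1.72 on the log2 scale (adjusted p = 0.0075 and 0.0198), and *Tubb3* had a log2 fold change of -0.70 (adjusted p = 0.0083). The mean FPKM of *Neurod1* was 0.470 in WT and 2.37 in KO, so it reached the minimum only through the KO libraries. The summed FPKM of the neural markers was 128 to 135 in WT and 89.8 to 97.9 in KO, most of it *Tubb3*. *Nes* stood at 0.733 and 0.674 FPKM in WT and 1.33 and 1.36 in KO (log2 fold change 0.85, adjusted p = 0.0541 in limma). Of the 6 tested, 5 had a log2 fold change above 0 and 1 had one below. The 4 under the minimum, among them *Neurog2* and *Fabp7*, were at or near 0 in each library, with a highest FPKM of 0.169. The part of neural cells in the *Pou3f1* value was not tested.

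Of the fibroblast feeder markers 2 of 10 were tested and 0 passed. Their summed FPKM was 5.04 to 5.28 in WT and 6.32 to 6.65 in KO, most of it *Twist1* and *Thy1*. Both of these had the KO libraries above the WT libraries, with log2 fold changes of 0.17 and 0.55 (adjusted p = 0.418 and 0.120 in limma). *Col1a2*, *Col3a1* and *Dcn* were at or near 0. Of the primitive endoderm markers 2 of 8 were tested and 0 passed. Their summed FPKM was 9.76 to 10.5 in WT and 9.20 to 9.44 in KO, most of it *Lama1*. Both tested markers, *Lama1* and *Gata4*, had the KO libraries below the WT libraries. Under the minimum, *Sox7*, *Dab2*, *Pdgfra* and *Foxa2* had them above, at an FPKM of at most 0.709, and *Gata6* and *Sox17* overlapped. Of 8 trophoblast markers 3 were tested. *Tfap2c* and *Ascl2* were higher (log2 fold change 0.78 and 1.65, the latter 1.38 without KO replicate 2) and *Eomes* lower. *Ascl2* reached the minimum only through the KO libraries, with a mean FPKM of 0.424 in WT and 1.57 in KO. *Cdx2*, a defining marker, had an FPKM of at most 0.0876.

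**Figure D4:**
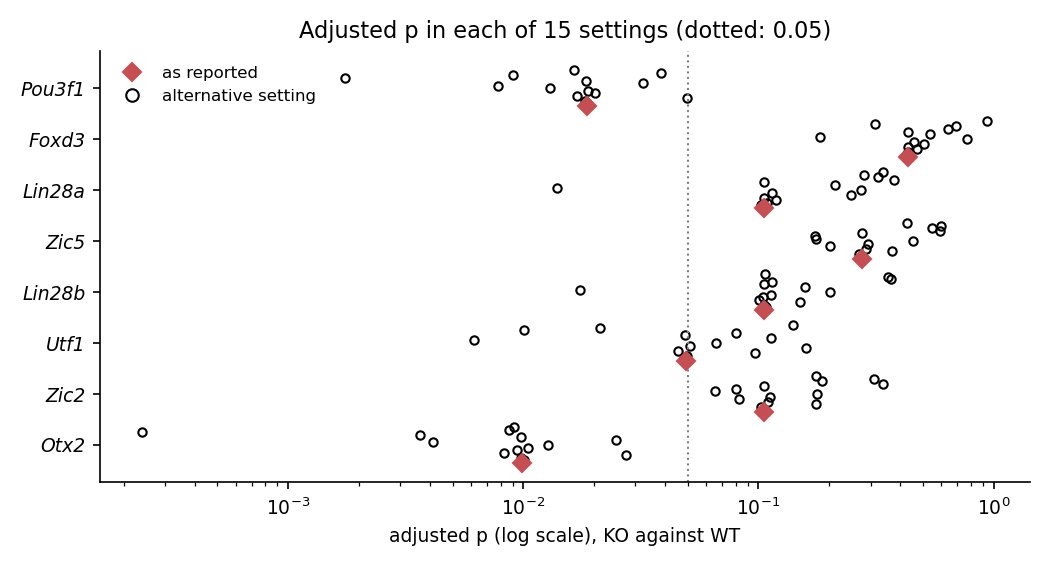
Adjusted p (log axis) of each tested gene in 15 settings, the reported one as a red diamond and the alternatives as circles; the dotted line is 0.05. All points of *Otx2* and *Pou3f1* lie below 0.05, those of *Utf1* fall on both sides, and those of *Zic2*, *Zic5* and *Foxd3* lie above it.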

How the data were processed

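What was measured was RNA, extracted with TRIzol, depleted of ribosomal RNA and sequenced from 2 WT and 2 *Bmal1* KO ESC libraries, grouped by their labels. The authors aligned reads with TopHat2 2.1.1 and Bowtie2 2.3.0 and estimated FPKM with Cufflinks 2.2.1 on GRCm38, and the deposited values are these FPKM per feature. FPKM are no counts, so a count test was not used, and multi-mapping or merged genes may share reads. From the deposited FPKM, log2(FPKM + 0.1) was fitted for features with a mean of at least 0.5 in limma 3.58.1 (R 4.3.3), with a variance trend and Benjamini-Hochberg adjustment over all 12990 of them; called features had an adjusted p under 0.05 and over 2-fold change. All 9 members are named, with at most 5 passing genes of each of 12 lists. Some genes of the lists are counted but not reported here by name. The members and lists were chosen with earlier results of these data known. Files count starts from 0, so 1 was added. On simulated data, 67.9% of genes changed by 0.5 on the log2 scale and 98.5% of those changed by 1 passed. These steps held 12842 and 12835 genes, and 13 and 30 unchanged genes passed beside 133 and 195 changed ones. Depth, which the files do not give, was estimated at about 22400000 to 23300000 fragments a library from the smallest FPKM steps. The alternatives were 2 other pseudocounts, no minimum or one of 1, 3 scalings, a replicate block, no variance trend, summing by symbol and leaving out each library.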

Additional observations from a re-analysis of the deposited data

How the results depend on the processing

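The number of members higher in KO was 1 in all 15 settings, the number past 2-fold 0, and no member changed sign. The number of members lower in KO, 2 as reported, was 1 with no filter on low values, with quantile normalization, with median-of-ratios scaling, with scaling to features with a symbol and without the variance trend, and it ran from 1 to 2 when 1 library was left out. The member that was lost each time was *Utf1*, with adjusted p of 0.0969, 0.159, 0.0513, 0.0659 and 0.113 in those settings. With a replicate block the number lower was 4, since *Lin28a* and *Lin28b* then passed. The labels share replicate numbers without saying that they mark a batch, so the libraries were not treated as paired and the block was an alternative. The difference between replicates 1 and 2 in WT and in KO correlated across features at Pearson's r = 0.071 and Spearman's rho 0.387. Features are not independent replicates, and with 2 pairs these values cannot settle whether replicates of equal number shared a difference. The median log2 fold change of the members ran from -0.30 to -0.22 over all settings, and the difference of the formative and naive medians from -0.138 to 0.0405 when 1 library was left out. Over all features, 890 were higher and 728 lower as reported, 571 and 380 without the filter, 1807 and 2245 with the replicate block, and 457 lower without the variance trend, and the 538 features past 2-fold became 231 at a pseudocount of 1 and 820 without WT replicate 1. Leaving out 1 library brought between 4 and 11 of the 29 calls among the genes of the lists to an adjusted p of 0.05 or more, and without either KO replicate *Fgfr2* fell under the minimum as well and was not tested. At this depth *Fgf5* rests on too few fragments for a fold change.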
